A study of Mus musculus with 142 samples.

Results

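AOSN.COSN123 is a deletion of one OCT4/SOX2/NANOG (OSN) binding site in ERCE A together with all OSN sites of ERCE C, made on the musculus homolog of the Dppa2/4 replication domain, while the promoter part of A is left in place. Its members were the early and late S-phase samples of clones A6 and B6, which are 4 of the 142 samples of the series. A further clone, F4, is listed in the labels (6 samples with it) and was not analysed here. The readout was the RT of the deletion allele minus that of the unmodified CAST allele in the same clone, taken in each of the 80 windows of 50 kb on chromosome 16 from 46.5 to 50.5 Mb (mm10), and 74 of these windows had a value on both alleles of both clones.

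The study dissected early replication control elements (ERCEs) by CRISPR-mediated deletion in F121-9, a hybrid mouse embryonic stem cell line grown in 2i and LIF, whose musculus and castaneus (CAST) homologs can be told apart by their sequence differences. Replication timing (RT) was measured by E/L Repli-seq after a 2 h label with BrdU, as log2 of early over late reads, so that values above 0 are early and values below 0 are late. The AOSN.COSN123 clones were set against 3 other deletions on the same homolog. COSN123 lacks only the C OSN sites (1 clone in 4 separate cultures), A.COSN123 lacks the whole of A and the C OSN sites (4 clones), and Z.AOSN.COSN123 lacks in addition to the sites of AOSN.COSN123 the upstream site Z (2 clones). All of them carry a CAST homolog without these deletions, and all lack the same C OSN sites. According to the study, the deletions at A were made in COSN123 cells, so AOSN.COSN123 and A.COSN123 descend from that line. Each AOSN.COSN123 clone was 1 library grown from a single sorted cell, so a clone and its library cannot be told apart.

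Mammalian chromosomes replicate in large domains that fire at set times in S phase, and early replication usually goes with open chromatin and active genes. ERCEs are stretches of a domain whose loss delays its replication. They hold binding sites of OCT4, SOX2 and NANOG, the transcription factors that maintain pluripotency, and they contact each other within the domain. The Dppa2/4 domain replicates early in embryonic stem cells and late after differentiation. It holds Dppa4 and Dppa2, a pair of DNA-binding proteins used as pluripotency markers, and Morc1, an ATPase required for silencing of transposons in the male germ line.

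The sequences that fix which bases were lost are the guides, since each deletion lies between a pair of Cas9 cuts. They are given 5′ to 3′ with the PAM in capitals, and each matched chromosome 16 once.
A-OSN-1-G1 (chr16:48308671-48308693, plus strand): cactgtagctgtcaccaaagAGG
A-OSN-1-G2 (chr16:48309344-48309366, minus strand): aaagggaacctagttgcctaAGG
C-OSN-3-G1 (chr16:48606304-48606326, plus strand): cagcctgttgaattgacagaAGG
C-OSN-3-G2 (chr16:48607147-48607169, plus strand): tctcttccctgtgccgtaagTGG
C-OSN-2-G1 (chr16:48608199-48608221, plus strand): agagtttgtagaatgctccgGGG
C-OSN-2-G2 (chr16:48608749-48608771, minus strand): acaagcatggtagggcctaaAGG
C-OSN-1-G1 (chr16:48613166-48613188, minus strand): gagtaactcaggcaaaacgtTGG
C-OSN-1-G2 (chr16:48614737-48614759, minus strand): ggaccggccaacctcccttaAGG

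The ends of the deletions were taken from the guides, at 3 bases from each PAM, and not from sequenced junctions of the clones. They place the A OSN deletion at chr16:48308688-48309349. These 662 bp lie in the first intron of the longer Dppa2 transcript. The kept element A-TSS, at chr16:48309960-48310625, covers coding and untranslated exon sequence of Dppa2, and the start of the shorter Dppa2 transcript lies 1127 bp downstream of the deletion. The study describes this promoter element as an OSN-bound site of its own. At C, the deletions cover chr16:48606321-48607163 (C-OSN-3, 843 bp), chr16:48608216-48608754 (C-OSN-2, 539 bp) and chr16:48613172-48614742 (C-OSN-1, 1571 bp), all in introns near the 3′ end of Morc1 and 297 kb downstream of the A OSN site. The 4 deletions remove 3615 bp in all, which is 1.32% of the 50 kb window at A and 5.91% of the window at C, so nearly all of the sequence measured in each window was still present on the deletion allele.

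Both strands of these sites were searched for the SOX core letters ACAATG and for the octamer ATGCAAAT. The deleted A OSN sequence held the SOX core at 2 places, which are shown with the core in capitals (on the minus strand it reads CATTGT).
A OSN, chr16:48308693-48308722: ggcatcaaatctCATTGTggttgctgggat
A OSN, chr16:48308774-48308803: tctctccagcccCATTGTttgtcttttttt
C-OSN-1 held it at 2 places, C-OSN-2 at 1 and C-OSN-3 at 0. The kept A-TSS held it at 0 places, and none of the deleted sites held the octamer. Among stretches of chromosome 16 as long as the A OSN deletion, 37.1% held the SOX core and 5.92% the octamer, so the SOX core is common by length alone.

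In both clones the deletion allele kept an early peak next to Dppa2, lower and narrower than that of the control allele. The control allele was earliest in the window chr16:48400001-48450000, which holds the Morc1 promoter in ERCE B, at 1.12 in A6 and 1.12 in B6. The deletion allele was earliest 1 window to the left, at chr16:48350001-48400000, with 0.80 in A6 and 0.67 in B6. Its top was flat, since in the window chr16:48400001-48450000 it stood at 0.79 in A6 and 0.66 in B6. The 2 unmodified musculus alleles of other clones peaked at 1.15 and 1.16, above both deletion alleles. The first peaked at chr16:48450001-48500000 and the second in the same window as the deletion alleles, so the place of the peak also varied without a deletion.

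**Figure D1:**
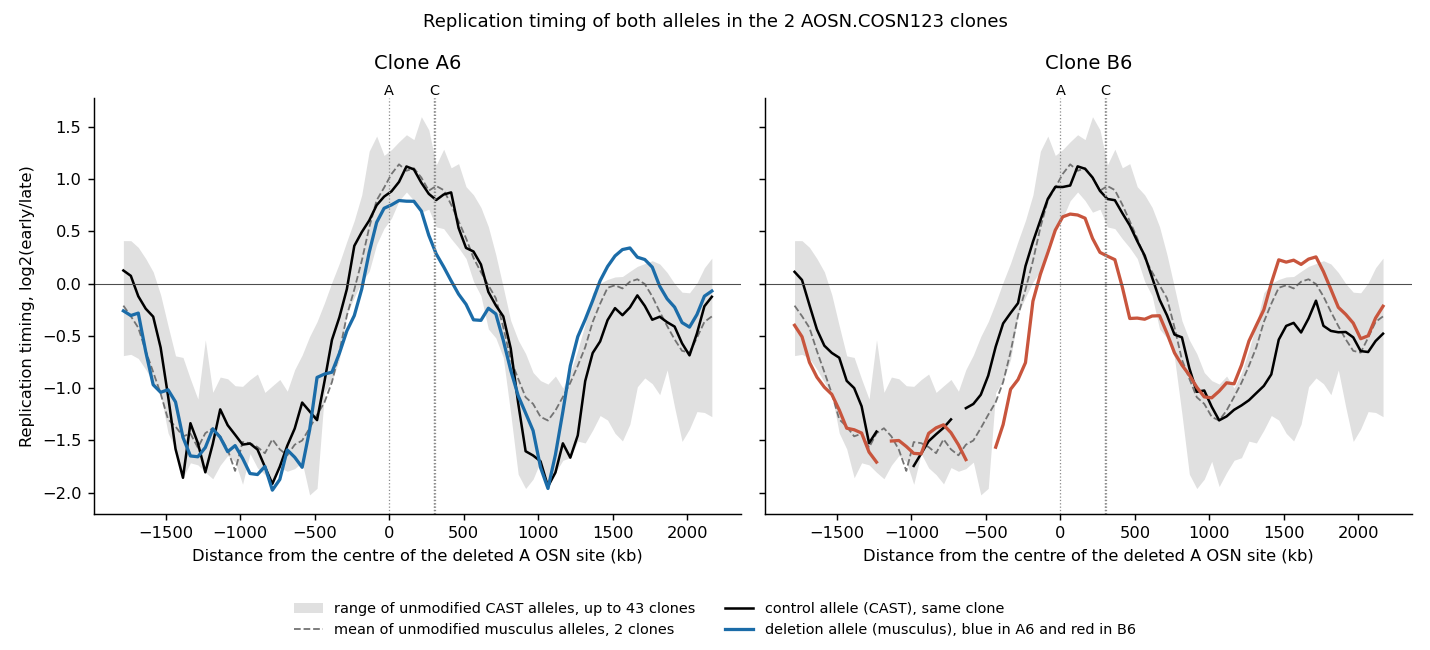
RT in log2(early/late) on the y axis against the distance in kb from the centre of the deleted A OSN site, for clone A6 (left) and clone B6 (right). The coloured line is the musculus deletion allele, the black line the CAST control allele of the same clone, the dashed line the mean of 2 unmodified musculus alleles and the grey band the range of unmodified CAST alleles; dotted lines mark the deleted A and C OSN sites. The deletion alleles peak at 0.80 and 0.67 and the control alleles at 1.12 in both clones.

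The stretch above 0 around this peak was taken as the early domain, with its edges found by linear interpolation. On the control allele it ran over 929 kb in A6 and 888 kb in B6. On the deletion allele it ran over 603 kb in A6 and 561 kb in B6. The right edge accounted for most of the shortening. It lay 651 and 630 kb to the right of the A OSN site on the control alleles of A6 and B6, and 427 and 410 kb to the right on the deletion alleles, in the window that holds the 3′ end of Trat1, which encodes a T cell receptor-associated adaptor. The left edge moved less, from -278 to -177 kb in A6 and from -258 to -151 kb in B6. The unmodified musculus alleles had their left edge at -222 and -227 kb and their right edge at 646 and 674 kb, so part of the shift of the left edge between homologs was also present without a deletion.

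Across the 2 deleted ends of the domain the delay was unequal. In the window that holds both the deleted A OSN site and the kept A-TSS, the deletion allele stood at 0.75 in A6 and 0.64 in B6 and the control allele at 0.88 and 0.93. The difference was -0.13 in A6 and -0.29 in B6, the smallest of the 3 ERCE windows in each clone. At the Morc1 promoter it was -0.33 in A6 and -0.47 in B6. In the window of the C OSN sites it was -0.52 in A6 and -0.55 in B6, where the deletion alleles stood at 0.28 and 0.26 and the control alleles at 0.80 and 0.81. Both clones thus showed a delay at C that exceeded their own delay at A, by 0.39 in A6 and 0.26 in B6, a description that carries no test. This is not particular to the genotype: the difference at C minus that at A was -0.20 and -0.09 in the Z.AOSN.COSN123 clones. It ranged from -0.41 to 0.12 in the COSN123 cultures and from -0.07 to 0.14 in A.COSN123.

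The largest delays lay outside the deleted sites. Clone A6 was most delayed at chr16:48700001-48750000, in Trat1, with a difference of -0.85 against -0.71 in B6. Clone B6 was most delayed at chr16:47900001-47950000, a window without an annotated gene to the left of the domain, with -0.97 against -0.31 in A6. To the right of C, the differences at Retnlb, a resistin-like secreted protein, were -0.54 in A6 and -0.74 in B6, and by Cip2a, an inhibitor of protein phosphatase 2A, they had shrunk to a mean of -0.12 and -0.16.

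**Figure D2:**
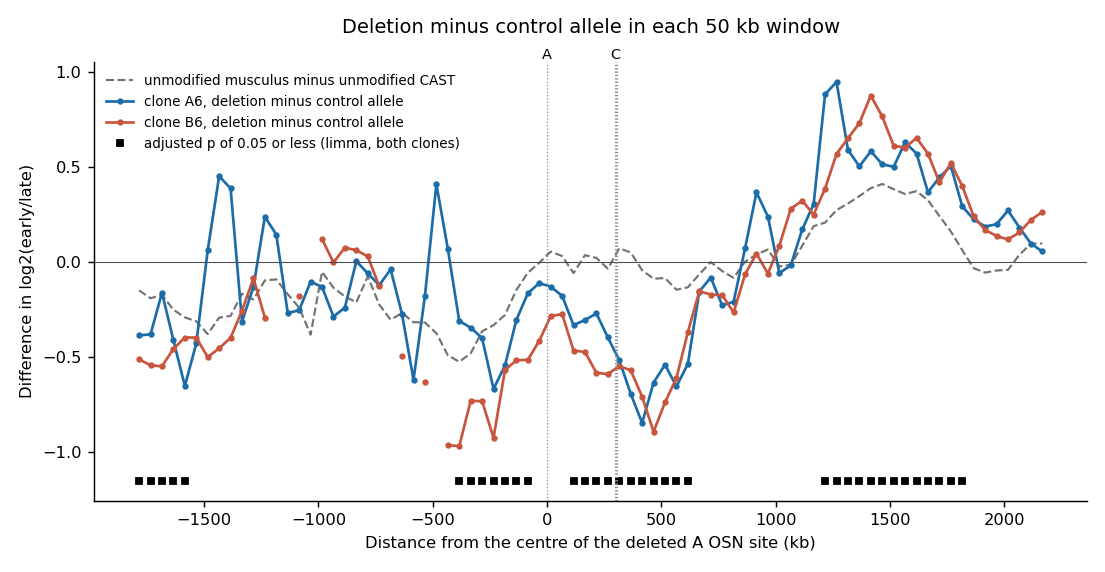
Difference in log2(early/late), deletion minus control allele, in each 50 kb window against the distance in kb from the centre of the deleted A OSN site. Blue and red points are clones A6 and B6, the dashed line is the difference between unmodified musculus and unmodified CAST alleles, and black squares mark the windows with an adjusted p of 0.05 or less over both clones. Both clones lie below 0 between the A and C sites and above 0 in the right flank, where the dashed line is also above 0.

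A linear model fitted with limma across all autosomal windows, with clones as units and 4 genotypes sharing 1 estimate of the spread, was used to test the difference of the AOSN.COSN123 clones from 0. The test could be run in 59 of the 80 windows, those with values in all 9 clones, and the gaps lay mostly in the late-replicating left part. It called 36 windows, 23 later and 13 earlier on the deletion allele, at an adjusted p of 0.05. Across all 34454 windows tested on the autosomes, 21.7% were called, 11.1% later and 10.6% earlier on the musculus homolog, although all deletions lie in this domain. Without B6 the count in the region fell to 20, and without A6 it was 24. The calls read the difference between the musculus and CAST homologs as well as that between deletion and control.

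The calls fell on the genes of the domain as follows. All 5 windows of Morc1 were called later, with a mean difference of -0.36 in A6 and -0.53 in B6. Both windows of Trat1 were called later, with -0.74 in A6 and -0.80 in B6. The windows of Retnlb and Retnlg were called later as well. The windows of Dppa4 and Dppa2 were not called: the difference at Dppa4 was -0.11 in A6 and -0.41 in B6, and that at Dppa2 had an estimate of -0.21 ± 0.091 (SE, limma adjusted p = 0.13). At the C OSN sites the estimate was -0.53 ± 0.081 (limma adjusted p = 5.0e-04), and in the Trat1 window of the largest delay it was -0.78 ± 0.087 (limma adjusted p = 6.7e-05).

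How much of each difference was present between unmodified homologs was read from 2 clones whose musculus homolog carries no deletion, set against the mean of the unmodified CAST alleles of 43 clones. Averaged over windows with values in all libraries, this strain difference was -0.002 in the early core (48.2 to 48.6 Mb) and -0.02 on the right slope (48.6 to 49.5 Mb). It was larger on the left slope (47.5 to 48.2 Mb), at -0.37, and on the right flank (49.5 to 50.5 Mb), at 0.19. At the A, B and C windows it was 0.05, -0.06 and 0.07. In the window of the largest delay of B6 it was -0.52, and over the 3 windows of Ift57, which encodes an intraflagellar transport protein, its mean was 0.38. With the strain difference subtracted, taken as free of error, 7 windows were called later and 0 earlier in the region (limma adjusted p of 0.05), against 0.456% of all windows called later and 0.264% earlier. The 7 windows form 1 run, chr16:48550001-48900000, from the 3′ part of Morc1 over the C OSN sites and Trat1 to Retnlg, with estimates between -0.46 and -0.73.

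When the deletion alleles were tested directly against the unmodified musculus alleles, with the spread of those 2 clones in the fit, limma called 0 of 60 windows in the region and 0% of all windows (smallest adjusted p in the region 0.0971). At an unadjusted p of 0.05, 19 windows of the region were lower on the deletion allele and 0 higher, against 12.1% of all windows in either direction. These 19 lay between chr16:48000001 and 49000000. The estimate was -0.35 ± 0.13 at Dppa2 (SE, limma adjusted p = 0.29), -0.66 ± 0.13 at the C OSN sites (limma adjusted p = 0.11) and -0.81 ± 0.14 in the second window of Trat1 (limma adjusted p = 0.0971). In the early core, from 48.2 to 48.6 Mb, each of the 8 windows was later than the unmodified musculus mean in both clones, with values between -0.43 and -0.20 in A6 and between -0.59 and -0.41 in B6.

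To the right of the domain the deletion homolog was the earlier one. The largest advance of A6 was 0.95 at chr16:49550001-49600000, where B6 had 0.57. The largest advance of B6 was 0.87 at chr16:49700001-49750000 in Ift57, where A6 had 0.58. Over the 3 windows of Cd47, a cell surface protein that inhibits phagocytosis, the mean difference was 0.57 in A6 and 0.62 in B6, and the strain difference was 0.37. Averaged over the right flank, from 49.5 to 50.5 Mb, the difference was 0.43 in A6 and 0.45 in B6 against a strain difference of 0.19. The deletion allele was earlier than the mean of the unmodified musculus alleles in all 20 windows of this flank in both clones, by 0.16 to 0.37 in A6 and by 0.02 to 0.27 in B6, while the 2 unmodified musculus alleles themselves stood at -0.45 and -0.23 there, a spread close in size to this excess.

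The comparison with COSN123 asks what loss of the A OSN site adds once C has lost its OSN sites. Over the early core the mean difference was -0.24 in A6 and -0.45 in B6, a mean of -0.34 ± 0.15 (SD, n = 2). The 4 cultures of COSN123 gave -0.53, -0.59, -0.39 and -0.51, a mean of -0.51 ± 0.081 (SD, n = 4), and they overlapped with AOSN.COSN123. On average the clones without the A OSN site were less delayed than the clone that kept it. The gap was 0.16 (exact two-sided permutation p = 0.13, Benjamini-Hochberg adjusted p = 0.60 over 18 comparisons). With 2 libraries against 4 the smallest p possible is 0.0667, so no such comparison could pass a threshold of 0.05. Against COSN123 these p-values take the cultures of 1 clone as replicates and do not measure the spread between clones.

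Window by window, limma called 0 of 59 windows different between AOSN.COSN123 and COSN123 (0% of all windows), and 3 had an unadjusted p of 0.05 or less, against 1.67% of all windows. This count was 9 with the cultures as separate libraries, 5 without B6 and 1 with the mean unmodified CAST allele as control. At Dppa2 the estimate was 0.21 with a 95% interval of -0.13 to 0.55, and at the C OSN sites it was 0.07 with an interval of -0.23 to 0.37. At the second Trat1 window the deletion allele of AOSN.COSN123 was the less delayed, with an estimate of 0.44 and an interval of 0.09 to 0.79 (limma adjusted p = 1.00). The lowest estimate in the region was -0.34, at chr16:48050001-48100000, with an interval of -0.85 to 0.17. An added delay at Dppa2 of more than 0.13 lies outside the interval at Dppa2. COSN123 is 1 clone, so these intervals take its spread from the other genotypes.

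The comparison with A.COSN123 asks what the rest of A, with the A-TSS, contributes when the A OSN site and the C OSN sites are gone. In the early core the 4 A.COSN123 clones had differences of -0.91, -0.72, -0.79 and -0.78, all below both AOSN.COSN123 clones. AOSN.COSN123 was 0.46 higher on average (exact two-sided permutation p = 0.0667, the smallest possible, adjusted p = 0.60). The deletion alleles themselves stood at 0.70 in A6 and 0.52 in B6, against 0.15, 0.24, 0.28 and 0.22 in A.COSN123. The control alleles were at 0.94 and 0.97 in AOSN.COSN123 and ranged from 0.96 to 1.08 in A.COSN123.

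The contrast with A.COSN123 was similar over the 4 windows from chr16:48200001 to 48400000, which hold Dppa4 and Dppa2, with limma estimates between 0.61 and 0.63, and was smaller toward C. The limma estimate was 0.63 at Dppa4 with a 95% interval of 0.33 to 0.94 and 0.61 at Dppa2 with an interval of 0.37 to 0.85. Both alleles entered the gap at Dppa2. The deletion alleles stood at 0.75 in A6 and 0.64 in B6 and ranged from 0.21 to 0.39 in A.COSN123, a gap of 0.39 between the means. The control alleles stood at 0.88 in A6 and 0.93 in B6 and ranged from 1.08 to 1.16 in A.COSN123, a gap of -0.22. The limma estimate was 0.35 (0.07 to 0.63) at the Morc1 promoter, 0.23 (0.02 to 0.44) at the C OSN sites and 0.01 (-0.22 to 0.24) in the window of the largest delay of A6. Benjamini-Hochberg adjustment over all windows left 0 calls (0% of all windows, smallest adjusted p in the region 0.745), and 9 of 59 windows had an unadjusted p of 0.05 or less, all of them earlier in AOSN.COSN123, against 4.96% of all windows. Without C9 of A.COSN123 there were 14, and without B7, D8 or H10 there were 7 each. In A.COSN123 the difference at A was -0.82 ± 0.11 and at C it was -0.76 ± 0.049 (SD, n = 4), whereas AOSN.COSN123 had -0.21 ± 0.11 at A and -0.53 ± 0.022 at C (SD, n = 2).

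The labels name the libraries of A6, B7 and C9 without a date and those of B6, D8 and H10 with one. Within the first set the early core of A6 was 0.58 above the mean of B7 and C9. Within the second, B6 was 0.34 above the mean of D8 and H10. Both AOSN.COSN123 clones lay above all 4 A.COSN123 clones in the early core. Any split of these libraries therefore gives the same direction, and the sets add no separate support. On the left slope, from 47.5 to 48.2 Mb, the gaps were 0.31 and 0.06, and A.COSN123 overlapped with AOSN.COSN123.

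**Figure D3:**
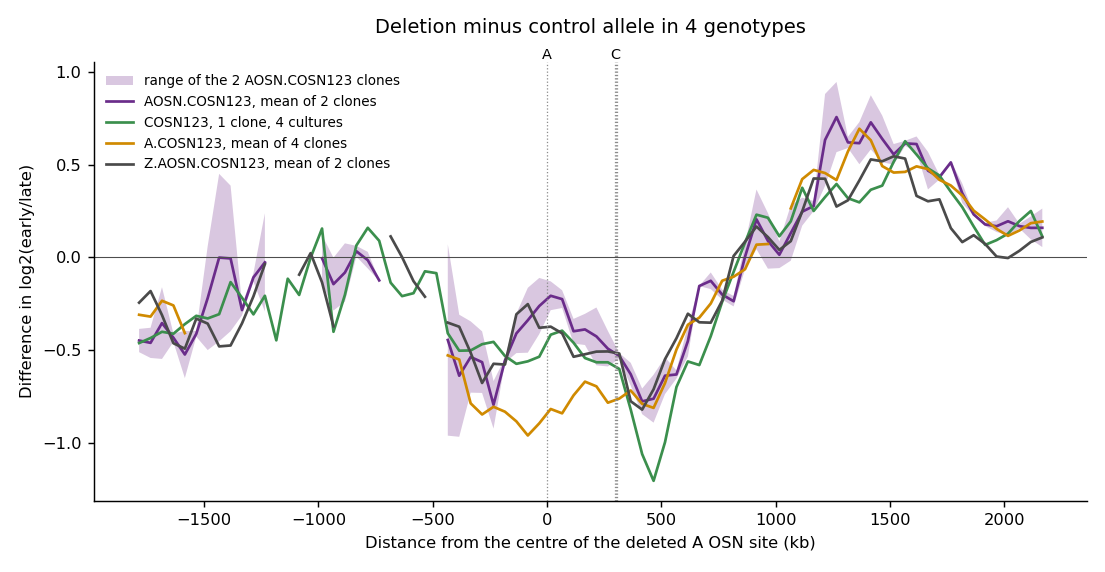
Difference in log2(early/late), deletion minus control allele, against the distance in kb from the centre of the deleted A OSN site for 4 genotypes. Lines are means over clones (over 4 cultures of 1 clone in COSN123) and the band spans clones A6 and B6. At the A site AOSN.COSN123 has a mean of -0.21 and A.COSN123 a mean of -0.82, and in the Trat1 window of the largest delay of A6 the means are -0.78 and -0.79.

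Z.AOSN.COSN123 carries the deletions of AOSN.COSN123 and lacks the OSN site Z upstream of A as well. Its 2 clones had early-core differences of -0.33 and -0.55, which overlapped with -0.24 and -0.45. Limma called 0 of 59 windows (0% of all windows), and 3 had an unadjusted p of 0.05 or less, all of them in the right flank, against 7.58% of all windows. This count was 6 without A6, 5 without A9 of Z.AOSN.COSN123 and 6 with the mean unmodified CAST allele as control. The estimate at Dppa2 was 0.17 with a 95% interval of -0.11 to 0.44. With 2 clones against 2 the smallest exact p is 0.333.

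**Figure D4:**
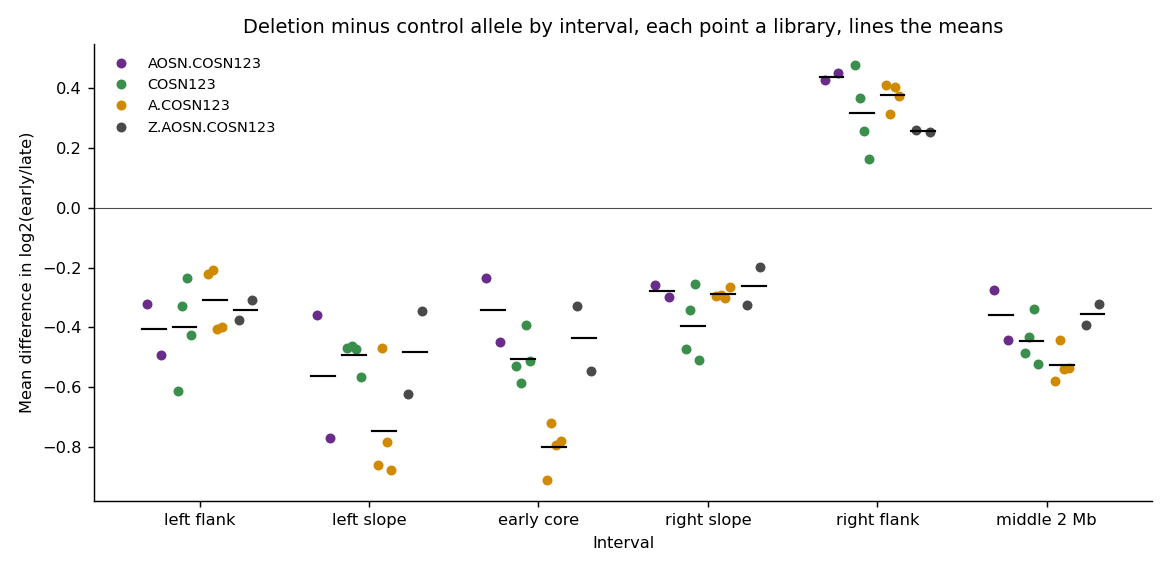
Mean difference in log2(early/late), deletion minus control allele, over 5 intervals and over the middle 2 Mb (x axis) for 4 genotypes. Points are single libraries and black lines are means. In the early core both AOSN.COSN123 libraries lie above the 4 A.COSN123 libraries and among or above those of COSN123 and Z.AOSN.COSN123.

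The early domain of the deletion allele was also compared by its width. The 603 and 561 kb of A6 and B6 lay above the 4 COSN123 cultures, which ranged from 415 to 555 kb, and above the 4 A.COSN123 clones, which ranged from 318 to 450 kb. The exact two-sided permutation p was 0.133 against COSN123 and 0.0667 against A.COSN123 (adjusted p = 0.267 for each, over 12 comparisons of curve shape). The left edge of AOSN.COSN123, at -177 and -151 kb, lay farther out than that of A.COSN123, which ranged from -80.6 to -57.7 kb, but within that of COSN123, from -187 to -95.9 kb. The 2 Z.AOSN.COSN123 clones spread over 732 and 448 kb, a wider gap than between A6 and B6.

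Clones A6 and B6 differed most on the left side of the domain. On the left slope the mean difference was -0.36 in A6 and -0.77 in B6, taken over the 7 windows of 14 with values in all libraries. This gap of 0.41 came from the deletion allele, which was 0.40 higher in A6, while the control alleles differed by -0.02. The strain difference on this slope was -0.37, so that the difference less the strain difference was 0.02 in A6 and -0.40 in B6. The largest gap of any window, 1.03, was at chr16:47850001-47900000, where the deletion allele stood at -0.87 in A6 and -1.57 in B6 and the control allele at -0.94 and -0.60. Some gaps farther left came mostly from the control allele. At chr16:46850001-46900000 the gap was 0.90, where the control alleles differed by -0.65 and the deletion alleles by 0.25. At chr16:46900001-46950000 it was 0.79, with -0.86 and -0.07. In both windows the control allele of A6 was the latest of all unmodified CAST alleles with a value. Gaps of 0.56 at chr16:46800001-46850000 and 0.53 at chr16:47050001-47100000 came with control differences of -0.37 and -0.39.

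In the early core the clones were closer, with a gap of 0.21, of which the deletion allele gave 0.18 and the control allele -0.03. The order was the same at each ERCE: A6 was less delayed than B6 by 0.16 at A, by 0.13 at B and by 0.03 at C. To the right of C the interval means of the clones were close, while single windows differed by up to 0.495, at chr16:49500001-49550000. On the right slope, from 48.6 to 49.5 Mb, the differences were -0.26 in A6 and -0.30 in B6, and on the right flank they were 0.43 and 0.45. At chr16:49350001-49400000 both alleles of A6 were much later than those of B6. The deletion allele stood at -1.96 in A6 and -1.03 in B6 and the control allele at -1.94 and -1.31, so that the differences were -0.02 and 0.28. The control allele of A6 was the latest of all 42 unmodified CAST alleles in this window.

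**Figure D5:**
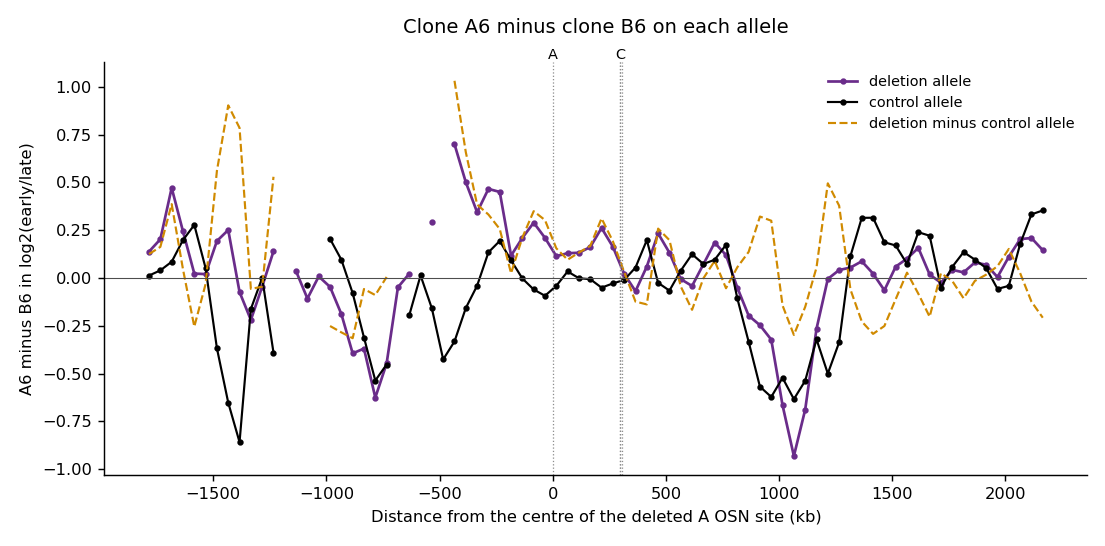
Clone A6 minus clone B6 in log2(early/late) in each 50 kb window against the distance in kb from the centre of the deleted A OSN site. Purple points are the deletion alleles, black points the control alleles and the dashed line the difference between deletion and control allele. The gap of the deletion minus control difference is largest left of the A site, at 1.03, and near 0 at the C site.

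Gaps between the clones were also measured on the rest of the autosomes. Within the region, 6 of 74 windows (8.11%) had clone differences of 0.5 or more, against 7.4% of 42456 windows on the rest of the autosomes. On the deletion allele alone 6 windows (8.11%) differed by as much between the clones, against 5.75% elsewhere, and on the control allele 9 windows (12.2%), against 4.85%. The SD of the gap was 0.28 over the region and 0.27 over the rest of the autosomes. Across windows, the differences of A6 and B6 had a Pearson's r of 0.80 over the 74 windows of the region and of 0.66 over the rest of the autosomes. Neighbouring windows share smoothed reads and both clones share their parental homologs, so this is a description.

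Shared delays were more frequent in the region than elsewhere. Differences of -0.5 or less in both clones were found in 8 of 74 windows (10.8%), against 2.69% on the rest of the autosomes. Differences of 0.5 or more in both clones were found in 8 windows (10.8%) too, against 2.69%, and all of these lay right of the domain. Averaged over the 37 windows of the middle 2 Mb with values in both clones, from 47.5 to 49.5 Mb, the difference was -0.24 in A6 and -0.39 in B6. Of 38747 stretches of the same length elsewhere on the autosomes, 1.59% had both clones at or below these values.

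In the early core the control allele of A6 was the 13th latest and that of B6 the 18th latest of 42 clones with an unmodified CAST allele. They stood at 0.94 in A6 and 0.97 in B6, against a median of 1.02 and a range of 0.70 to 1.30. Clones A6 and B6 are themselves among the 42, so lying within this range is no check of them. Over the middle 2 Mb the control allele of A6 was the 7th latest of the 42 and that of B6 the 11th latest. The deletion allele was later than every unmodified CAST allele in 18 of 40 windows of the middle 2 Mb in A6 and in 21 of 38 in B6. In the early core this held for 3 of 8 windows in A6 and for 7 of 8 in B6. These counts set a musculus allele against CAST alleles. The unmodified musculus mean was itself later than every CAST allele in some windows left of the core, such as chr16:47850001-47900000 (-1.14 against -1.04). Against the unmodified musculus mean, the deletion allele was later in 36 of 40 windows of the middle 2 Mb in A6 and in 28 of 38 in B6.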

How the data were processed

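E/L Repli-seq libraries of early and late S-phase fractions were analysed in AOSN.COSN123, COSN123, A.COSN123 and Z.AOSN.COSN123. The authors trimmed reads (Trim Galore), aligned them to SNP-masked mm10, split them by homolog, and deposited log2 values of early over late reads in 50 kb windows, scaled, quantile-normalized and loess-smoothed over 300 kb, so neighbouring windows share reads. Read depth is unknown. Values were present in 93.7% (A6) and 88.9% (B6) of 49264 windows. All 138 columns were read. The deletion allele minus the CAST allele of the same clone was taken, cultures of a clone were averaged, and limma 3.58.1 (R 4.3.3) was fitted over windows complete in 9 clones (5 residual degrees of freedom, Benjamini-Hochberg, threshold 0.05), after a test on simulated data. Interval means used exact permutation tests of libraries over windows complete in all of them. The members, intervals and named windows (those of the sites, the peaks, the largest differences and the zero crossings, with their genes) were chosen with earlier results of these data known; the tests of curve shape and against unmodified musculus alleles were added after seeing the data. limma p-values measure the spread between clones; permutation p-values measure that between libraries, which in COSN123 are cultures of 1 clone. The empirical test of random regions of the study was not used. Guides were matched to GRCm38.p6 and annotated with GENCODE vM21. Analyses used Python 3.11.15. Clone F4 was not analysed here.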

Additional observations from a re-analysis of the deposited data

Results flagged for a closer look

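Among 16 groups of 4 libraries checked for a single library far from the others (6 interval means and 2 measures of curve shape in COSN123 and A.COSN123), 1 was flagged, and chance flags about 1 in 20. On the left slope, replicate 4 of COSN123 had a mean difference of -0.57, while the other cultures of the same clone lay between -0.47 and -0.46. This library was not used in any AOSN.COSN123 value. Groups of 2, which include AOSN.COSN123, are too small for this check.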

How the results depend on the processing

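Of 62 alternatives, 54 left the value within its limits (a count within 1.5 times, an interval mean within 1 SD). Many of these could not move: the mean of 2 clones without 1 of them always lies within 1 SD. A further 23 were counts of 0 against 0 in comparisons with other genotypes. Only the 30 alternatives of interval means have a sign, and all 30 kept it. The 36 windows called between deletion and control allele became 7 with the strain difference subtracted and 0 against the unmodified musculus alleles (chosen after seeing the data); they were 20 without B6 and 24 without A6. Interval means moved with the strain difference subtracted to -0.17 on the left flank, -0.19 on the left slope and 0.24 on the right flank, and with the mean unmodified CAST allele as control to -0.38 on the right slope and 0.41 on the right flank. Without 1 clone, the mean over the early core was between -0.45 and -0.24 and that over the left slope between -0.77 and -0.36. The 3 comparisons with other genotypes gave 0 called windows in the region under all 23 alternatives; elsewhere, 384 windows were called against Z.AOSN.COSN123 with the mean CAST control and 3 without either Z.AOSN.COSN123 clone. No paired analysis was possible because the groups compared share no replicate numbers in the labels. The set of library names used as a block against A.COSN123 is no pairing of samples; with it, 10 windows in the region had an unadjusted p of 0.05 or less, against 9 without it. Depth is unknown, and 2 clones limit every comparison.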
